A study of Mus musculus with 24 samples.

Results

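miR-191 and miR-425 are the microRNAs (miRNAs) of the miR-191/miR-425 cluster. Both were taken by name from the miRNA count table, 2 of its 510 entries, and both were detected in all 24 libraries. The libraries were made from small RNA of mammary tissue of FVB female mice at weeks 6, 8, 10 and 12, with 3 MMTV-PyMT mice and 3 FVB mice per week. MMTV-PyMT mice were heterozygous for a transgene in which the mouse mammary tumor virus promoter drives the polyoma middle T oncoprotein in the mammary epithelium. The transgenic tissue is called tumor here at every week: hyperplasia (week 6), adenoma/MIN, that is mammary intraepithelial neoplasia (week 8), early carcinoma (week 10) and late carcinoma (week 12). FVB mice of the same strain and age without the transgene gave the normal mammary gland, and no other allele or agent was named for either genotype.

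Mature miRNAs are cut from the arms of a hairpin precursor and are loaded into Argonaute proteins. Bases 2 to 8, the seed, pair with target messenger RNAs, which are then repressed. The miR-191/miR-425 cluster is transcribed together with its host gene Dalrd3. It has been studied as an estrogen-responsive cluster in human breast cancer cells, and miR-191 is also widely used as a reference miRNA for normalization.

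The hairpins show where the counted reads arose, and the arms are in capitals. The hairpin of mir-191 lies on the plus strand at chr9:108470650-108470723 and that of mir-425 at chr9:108471108-108471192, in NCBIM37 (mm9), from a match of the RefSeq hairpin sequence (table build GRCm38.p6) to that genome.

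mir-191: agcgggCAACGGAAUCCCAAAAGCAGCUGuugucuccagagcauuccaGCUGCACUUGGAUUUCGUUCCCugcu
mir-425: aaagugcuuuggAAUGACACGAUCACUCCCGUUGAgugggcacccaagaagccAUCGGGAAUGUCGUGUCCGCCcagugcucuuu

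The hairpins are 74 and 85 bases long and 384 bases apart. RefSeq places both inside the gene Dalrd3. The GENCODE annotation of mm9 starts Dalrd3 only 1030 bases after the mir-425 hairpin, and there it names mir-425 as Mir425. Over mir-191 it lists a miRNA gene, CT010508.1, on the opposite strand. Whether counting used the strand was not given in the sources used here, so reads of the 2 strands at mir-191 cannot be told apart.

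The mature arms, from RefSeq, are shown with the seed in capitals, because the seed decides which other miRNAs could share targets with a member.

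miR-191-5p: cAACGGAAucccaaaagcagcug
miR-191-3p: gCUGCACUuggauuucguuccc
miR-425-5p: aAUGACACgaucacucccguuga
miR-425-3p: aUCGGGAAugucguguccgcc

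The 4 seeds differ from each other, so the members share no seed. Among 1738 mouse mature arms in the reference, the seeds of miR-191-5p, miR-191-3p and miR-425-3p each occurred in 1 arm, their own. The seed of miR-425-5p occurred in 2 arms, the other being miR-489-3p, encoded on chromosome 6.

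miR-489-3p: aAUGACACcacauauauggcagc

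This arm is identical to miR-425-5p at 12 positions counted from the 5′ end without gaps. Its hairpin, mir-489, held 7 counts over 4 of the 24 libraries, with at most 3 in any of them, and was too low to be tested. The table holds 1 row per miRNA name, without the arm, so the 5p and 3p arms of a member cannot be told apart in the values that follow.

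Library totals ran from 1032241 to 3931375 counts, with a median of 1690296.5 in tumor and 2964452 in normal. A count of 3 was worth 0.763 to 2.91 CPM (the count scaled to a common library size), far below both members. Skeletal muscle miRNAs (mir-1, mir-133a, mir-133b and mir-206) took over 1% of the counts in 6 libraries, 4 of them normal, up to 9.50% in normal week 6 replicate 1 and 7.55% in normal week 12 replicate 1. Among epithelial marker miRNAs, 5 of 7 were higher in tumor at every week (1 was lower at week 12), and 5 of 5 smooth muscle and fibroblast markers and the endothelial marker miR-126 were lower. Of 4 leukocyte markers miR-223 was at 0 in all libraries and 1 was lower at every week. Whether that 0 meant absent expression or reads that were not counted was not tested. At weeks 6, 8, 10 and 12, 1, 0, 1 and 3 of 3 erythroid markers were lower. So were 0, 1, 0 and 3 of 3 tested skeletal muscle markers. Over all tested miRNAs, 29.1%, 21.9%, 32.9% and 29.1% were called higher and 29.5%, 13.5%, 27.4% and 21.5% lower at these weeks.

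miR-191 was higher in tumor than in normal mammary gland at all 4 weeks, by 1.95- to 2.07-fold in geometric means, with no overlap between the groups. miR-425, its cluster partner, was far less abundant. Its levels lay 1.21- to 1.49-fold higher in tumor, a difference that did not pass the test at any single week but did over the 4 weeks together. The ratio of miR-191 to miR-425 within a library was also higher in tumor.

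The abundance of the members differed widely. miR-191 held 10802 to 37211 counts per library and miR-425 held 191 to 613. Over the 12 tumor libraries miR-191 ranked between 10 and 17 among the 510 entries by count, and over the 12 normal libraries between 18 and 30. miR-425 ranked between 107 and 120 in tumor and between 115 and 124 in normal. As a share of all counts, miR-191 ran from 0.554% (95% exact binomial interval 0.544 to 0.564) in normal week 6 replicate 1 to 1.69% (1.67 to 1.72) in tumor week 10 replicate 2. The share of miR-425 ran from 0.0106% (0.00951 to 0.0119) in normal week 12 replicate 3 to 0.0234% (0.0214 to 0.0255) in tumor week 12 replicate 1. Counting error was at most 0.962% of the value for miR-191 and 4.04% to 7.24% for miR-425. Intervals and floors cover counting error within a library only, not the spread between mice. Reads carried no molecular identifiers, so amplified copies of a molecule could not be told apart.

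**Figure D1:**
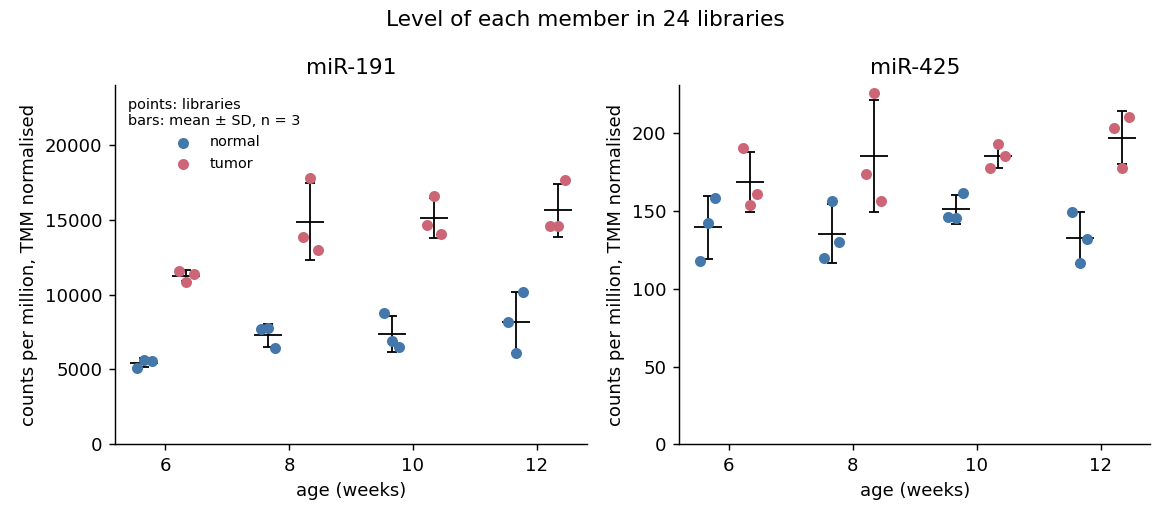
Level of miR-191 (left) and miR-425 (right) in CPM after TMM normalization against age in weeks. Points are single libraries of normal gland and tumor, black bars are the mean ± SD of 3 libraries. All tumor libraries of miR-191, from 10856 upward, lie above all normal libraries, which reach 10178, while the miR-425 groups overlap at week 6.

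In the normal gland at week 6, miR-191 was at 5103, 5649 and 5562 CPM in replicates 1 to 3, against 11546, 10856 and 11379 CPM in tumor. The normal gland at week 8 gave 7673, 7789 and 6405 CPM, and tumor gave 13857, 17775 and 12960 CPM. All 3 tumor libraries lay above all 3 normal libraries at both weeks. At week 10, normal libraries held 8759, 6867 and 6514 CPM, and tumor libraries held 14654, 16604 and 14023 CPM. At week 12, the normal values were 8180, 6095 and 10178 CPM and the tumor values 14596, 14589 and 17662 CPM. The groups did not overlap at these weeks either, nor at any of the 4 weeks when values were scaled by total counts alone. Across all tested miRNAs, tumor lay above normal without overlap for 34.2%, 32.1%, 36.3% and 33.3% at weeks 6, 8, 10 and 12, so this separation was common in these data.

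In means, miR-191 was at 5438 ± 293 CPM (SD, n = 3) in normal and 11260 ± 360 CPM in tumor of week 6, and at 7289 ± 768 and 14864 ± 2561 CPM in those of week 8. The week 10 means were 7380 ± 1207 and 15093 ± 1345 CPM, and the week 12 means 8151 ± 2042 and 15615 ± 1772 CPM. After TMM the spread between normal libraries was widest at week 12. Under total counts the normal SD was 893 CPM at week 12 and widest at week 10, at 1052 CPM. In log2 fold change (SE), tumor exceeded normal by 1.05 (0.13), 0.99 (0.21), 1.02 (0.16) and 0.92 (0.27) in order of week. All of these passed the edgeR quasi-likelihood test with Benjamini-Hochberg adjustment over 237 tested miRNAs, at adjusted p = 8.96e-04, 0.0114, 0.00171 and 0.0242. Of the tested miRNAs, 58.6%, 35.4%, 60.3% and 50.6% were called at these weeks in either direction, and 29.1%, 21.9%, 32.9% and 29.1% were called higher. With the replicate number as a block, the count at week 8 went from 84 to 131 of 237, and miR-191 still passed (0.99, adjusted p = 0.00389). The fold change of miR-191 ranked 53rd, 58th, 59th and 65th from the top of 237. The median log2 fold change of all tested miRNAs was -0.12, -0.09, -0.15 and -0.19.

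At week 12 miR-191 no longer passed without normal replicate 1 (0.91, adjusted p = 0.0538) or without tumor replicate 3 (0.81, adjusted p = 0.0843), with log2 fold changes near the 0.92 of all 6 libraries. In bulk tissue, fewer cells of a type and less RNA per cell cannot be told apart. Epithelial marker miRNAs summed to 20271 to 31779 CPM (total counts) in tumor and to 4575 to 21364 CPM in normal, and their part in the difference was not tested.

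miR-425 varied less between the tissues. At week 6 it was at 118, 142 and 158 CPM in normal and at 190, 154 and 161 CPM in tumor. At week 8 it was at 120, 156 and 130 CPM in normal and at 174, 226 and 157 CPM in tumor. The groups overlapped at week 6, and at week 8 the lowest tumor value was almost level with the highest normal value. Normal libraries of week 10 held 146, 146 and 162 CPM against 177, 193 and 186 CPM in tumor. Those of week 12 held 149, 116 and 132 CPM against 203, 178 and 211 CPM. At weeks 10 and 12 the groups did not overlap, and this held under total-count scaling, whereas week 8 overlapped under that scaling. Such separation was common: after TMM, 32.1%, 36.3% and 33.3% of all tested miRNAs had it at weeks 8, 10 and 12.

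The normal means of miR-425 were 140 ± 20.2, 135 ± 19, 151 ± 9.18 and 133 ± 16.5 CPM (SD, n = 3) at weeks 6, 8, 10 and 12, and the tumor means 169 ± 19.3, 185 ± 36.0, 185 ± 7.87 and 197 ± 17.1 CPM. The log2 fold change (SE) was 0.27 (0.22), 0.42 (0.27), 0.28 (0.18) and 0.56 (0.24), with adjusted p = 0.305, 0.230, 0.187 and 0.0822 by edgeR. None of the 4 weeks passed when fitted alone. When all 24 libraries shared 1 estimate of the spread, week 8 (0.45, adjusted p = 0.0434) and week 12 (0.57, adjusted p = 0.0115) passed.

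**Figure D2:**
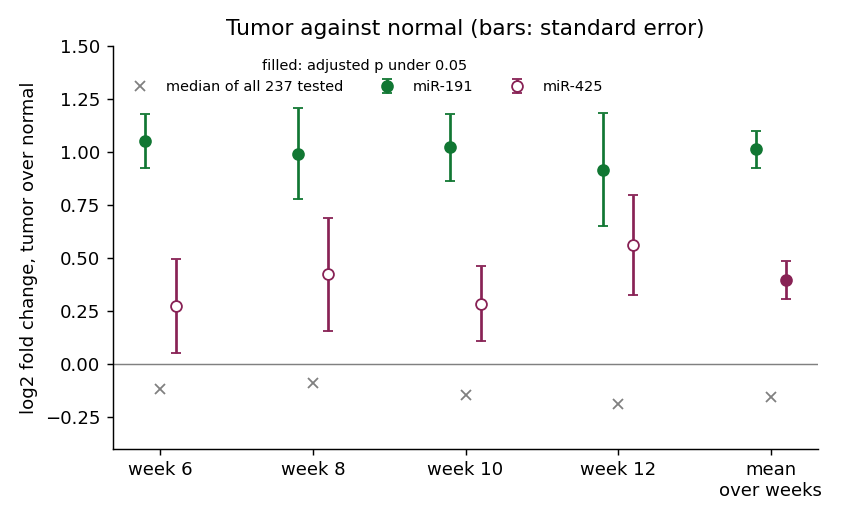
Log2 fold change of tumor over normal at each week and as the mean over weeks, for miR-191 (green) and miR-425 (purple). Bars are standard errors, filled symbols mark an adjusted p under 0.05, and grey crosses are the median of all 237 tested miRNAs, which lies between -0.19 and -0.09. miR-191 stays between 0.92 and 1.05 and miR-425 between 0.27 and 0.56.

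Averaged over the 4 weeks, miR-191 was higher in tumor by 1.01 (SE 0.086) on the log2 scale, adjusted p = 2.67e-09, and miR-425 by 0.40 (0.090), adjusted p = 4.92e-04. In this fit 85.7% of the 237 tested miRNAs were called, 38.8% of the tested as higher and 46.8% as lower, and the median log2 fold change was -0.15. Without the 6 libraries over 1% muscle miRNAs the differences were 0.99 and 0.36, with adjusted p = 8.58e-06 and 0.0150. In same-numbered pairs within weeks, miR-191 was higher in tumor in 12 of 12 under TMM and under total counts. For miR-191 this count follows from the lack of overlap at every week, so it adds nothing to it. miR-425 was higher in tumor in 12 of 12 pairs under TMM and 10 of 12 under total counts. Libraries were run in 2 sequencing lanes, and each lane held both genotypes. The difference of miR-191 was 0.96 in lane 1 and 1.01 in lane 2. That of miR-425 was 0.43 in lane 1 (adjusted p = 0.0224) and 0.32 in lane 2, where it did not pass (adjusted p = 0.0745).

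Whether the tumor-normal difference varied between weeks was tested with an interaction term. It did not pass in the edgeR fit for miR-191 (adjusted p = 0.975) or miR-425 (adjusted p = 0.971). No tested miRNA passed this edgeR test (0% called), and 9 of 237 had an unadjusted p under 0.05, or 3.8%.

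The order of the miR-191 groups by age depended in part on scaling. After TMM normalization, from the highest mean down, they were tumor at weeks 12, 10, 8 and 6, then normal at weeks 12, 10, 8 and 6. Neighbouring groups in this order overlapped among tumor weeks 12, 10 and 8 and among normal weeks 12, 10 and 8. Under total-count scaling the tumor order was the same, but the normal means were 6006, 7650, 7570 and 7188 CPM at weeks 6, 8, 10 and 12, so that week 8 was the highest. Week 6 lay below week 8 without overlap in both tissues under either scaling. For miR-425 the 4 tumor groups lay above the 4 normal groups in mean, but every neighbouring pair in the order overlapped.

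Between weeks 6 and 12, miR-191 in normal gland rose by 0.58 on the log2 scale (SE 0.17, adjusted p = 0.0198, edgeR), where 21.1% of miRNAs were called and 5.49% were called higher. miR-425 differed by -0.07 in normal gland (adjusted p = 0.834). The rise depended on scaling: under total counts it was 0.26 (adjusted p = 0.208), while the median of all miRNAs moved from 0.06 to -0.23. It also did not pass without the normal libraries numbered 3 (0.45, adjusted p = 0.196) or 1 (0.60, adjusted p = 0.0707) or the tumor libraries numbered 1 (0.58, adjusted p = 0.0504), nor without the 6 libraries over 1% muscle miRNAs (0.55, adjusted p = 0.235). In tumor, week 12 stood above week 6 by 0.47 for miR-191 (SE 0.17, adjusted p = 0.0900) and by 0.23 for miR-425 (adjusted p = 0.428), and neither passed. There 7.59% of all tested miRNAs were called, 4.22% as higher.

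The ratio of miR-191 to miR-425 counts within a library does not depend on library size or scaling. It asks whether the cluster's products moved by the same factor. At week 6 it was 43.2, 39.7 and 35.2 in normal gland and 60.6, 70.4 and 70.7 in tumor. Week 8 gave 64.2, 49.8 and 49.2 in normal against 79.8, 78.8 and 82.8 in tumor. Both groups of week 8 stood above their week 6 counterparts, a difference that was not tested. Week 10 gave 59.9, 47.2 and 40.3 in normal against 82.6, 85.9 and 75.5 in tumor, and week 12 gave 54.8, 52.3 and 77.0 against 71.8, 82.0 and 83.9. Tumor lay above normal without overlap at weeks 6, 8 and 10, and at week 12 the highest normal library fell inside the tumor range. The median ratio was 79.3 in tumor and 49.5 in normal over 12 libraries each.

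**Figure D3:**
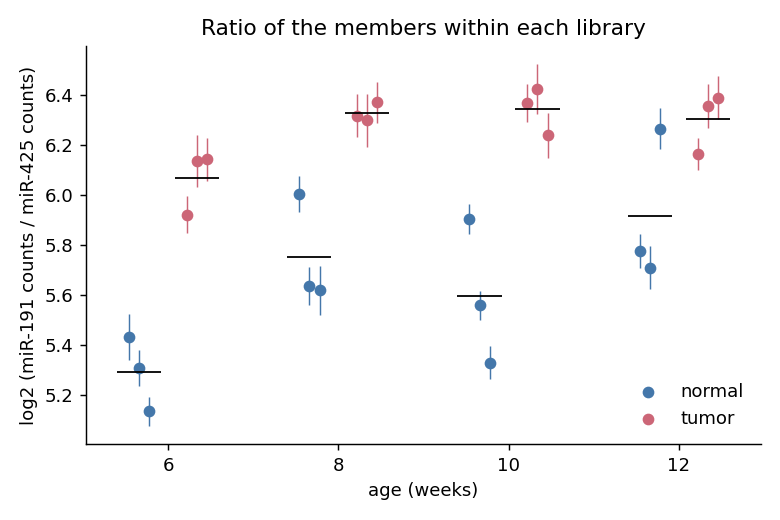
Log2 ratio of miR-191 to miR-425 counts within each library against age in weeks. Points are libraries with a vertical line of ± 1 counting SD (0.059 to 0.105), and horizontal lines are group means. Tumor lies above normal at weeks 6, 8 and 10 without overlap, and the normal groups run from a mean of 5.29 at week 6 to 5.92 at week 12.

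On the log2 scale the ratio was higher in tumor by 0.77, 0.58, 0.75 and 0.39 at weeks 6, 8, 10 and 12. With 3 libraries against 3, an exact permutation test cannot give a two-sided p below 0.1, which was reached at the first 3 weeks; week 12 gave p = 0.2. Averaged over weeks, the difference was 0.62, or 1.54-fold. The two-sided exact permutation test over all 160000 arrangements of genotype within weeks gave p = 2.5e-05. All 12 of 12 same-numbered pairs had the higher ratio in tumor. Permuting genotype only within these pairs (4096 arrangements) therefore gave the smallest exact p it can give, 4.88e-04. Within lane 1 the difference was 0.50 and within lane 2 it was 0.76. Each had p = 0.0139 by exact permutation over 144 arrangements, the smallest that test can give. Leaving out the 6 libraries over 1% muscle miRNAs gave 0.64 (exact permutation p = 5.56e-04).

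The ratio was also compared between the first and last age. In normal gland its log2 mean was 5.29 at week 6 and 5.92 at week 12, a difference of 0.62, and in tumor it was 6.07 and 6.30, a difference of 0.24. Weeks 6 and 12 did not overlap in either tissue. The exact permutation test gave p = 0.1, the smallest it could give, so it cannot decide whether the ages differed. In tumor, replicate 3 of week 6 (6.14) and replicate 1 of week 12 (6.17) were close, with counting SDs of 0.087 and 0.064. The sequencing lanes were not split evenly between these weeks, so lane and age cannot be fully told apart.

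Other miRNA pairs known to be transcribed together gave a scale for this difference. In 14 such pairs the absolute tumor-normal difference of the log2 ratio ran from 0.091 to 1.13, with a median of 0.35, and 12 of the 14 were smaller than that of miR-191/miR-425. The larger ones were miR-15b/miR-16 at 1.13 and miR-193b/miR-365 at 0.75, and miR-29a/miR-29b stood close at 0.59. miR-16, miR-29b and miR-365 are also made from other loci, so their rows hold more than 1 transcript's product. Between libraries of a group, the SD of the log2 ratio was 0.189 for miR-191/miR-425, against 0.160 to 0.396 for the others (median 0.276), and 3 of the 14 were steadier. Pearson's r of the members' deviations from their group means was 0.50 over 24 libraries, against 0.402 to 0.965 in the other pairs (median 0.637). Only 2 of the 14 had a lower r. These values share the same libraries, and counting error is larger for pairs with a low-count partner such as miR-425.

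**Figure D4:**
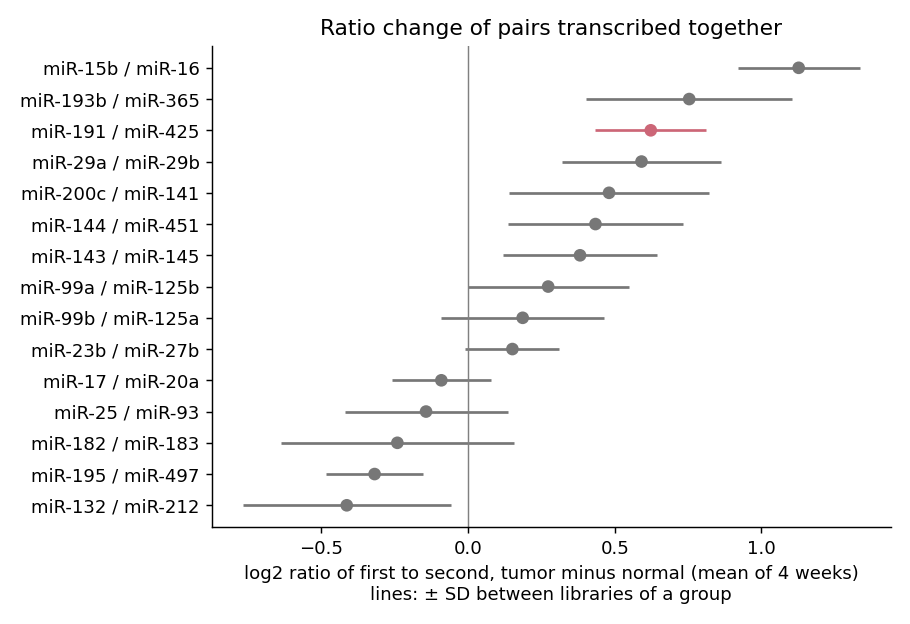
Tumor minus normal difference of the log2 ratio of first to second member, mean of 4 weeks, for miR-191/miR-425 (red) and 14 other pairs of miRNAs transcribed together. Lines are ± the SD between libraries of a group. miR-191/miR-425 at 0.62 is the third from the top, under miR-15b/miR-16 and miR-193b/miR-365.

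The miRNAs whose log2 CPM followed each member most closely over the 24 libraries were not the cluster partner. For miR-191 they were miR-674 (Pearson's r = 0.98), miR-423 (0.97), miR-484 (0.95), miR-92b (0.95) and miR-148a (0.95), and miR-425 came 43rd (0.81). These 5 were themselves higher in tumor over the 4 weeks, with log2 fold changes of 1.76, 1.07, 1.30, 3.37 and 1.82. As deviations from group means, which take out tissue and week, miR-674 (0.89) and miR-423 (0.89) were again first, followed by miR-151 (0.85). For miR-191, then, the nearest pair of miRNAs was the same with and without the group differences.

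For miR-425 the closest were miR-375 (0.87), miR-297b (0.87), miR-582 (0.86), miR-466c (0.84) and miR-92a (0.84), with log2 fold changes of 2.31, 1.81, 0.95, 2.78 and 1.23, and miR-191 came 25th. By deviations they were miR-130b (0.72), miR-297b (0.70) and miR-301b (0.65). Under total-count scaling none of the first 5 was among the closest 5, and r between the members fell from 0.81 to 0.70. These correlations describe 24 libraries that share tissue, week and scaling.

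Because miR-191 is used as a reference miRNA, its steadiness was set beside 11 other miRNAs that serve as references for normalization in qPCR. The SD of log2 CPM over all 24 libraries was 0.58 for miR-191, 93rd from the steadiest of 237, and 0.26 for miR-425, which was 18th. The median over all tested miRNAs was 0.67. let-7g was the steadiest of the references at 0.15 (2nd), followed by miR-25 at 0.26 (19th) and miR-24 at 0.28 (22nd). miR-423 (0.62) and miR-484 (0.71) varied more than miR-191, as 105th and 134th. Within groups, where tissue and week do not enter, the SD was 0.20 for miR-191 (21st) and 0.17 for miR-425 (15th), against a median of 0.37.

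**Figure D5:**
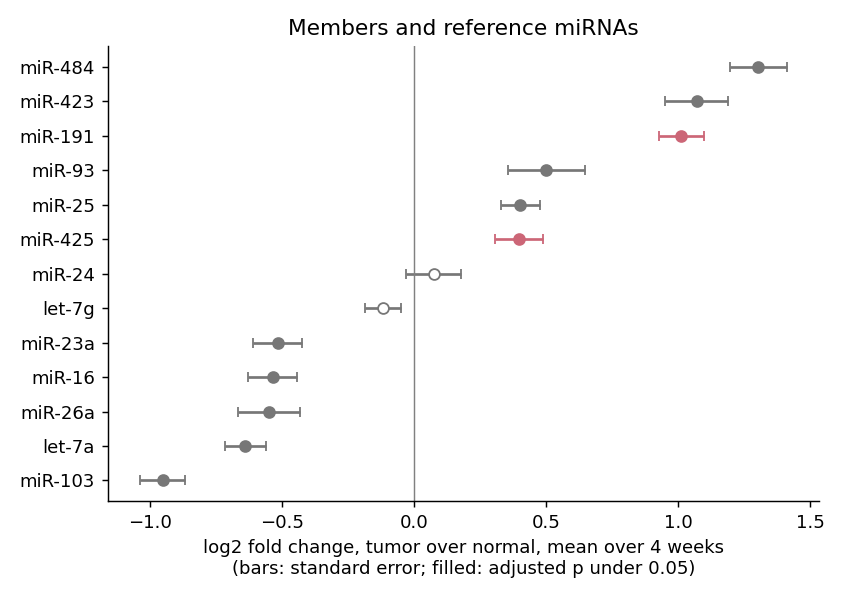
Log2 fold change of tumor over normal, mean over 4 weeks, for miR-191 and miR-425 (red) and 11 reference miRNAs (grey). Bars are standard errors and filled symbols mark an adjusted p under 0.05. miR-191 at 1.01 lies under miR-423 and miR-484, and the references extend down to miR-103 at -0.95.

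Of these 11 references, 4 were higher in tumor over the 4 weeks, 5 were lower and 2 did not pass, with a median log2 fold change of -0.12. Over all tested miRNAs 38.8% were higher and 46.8% lower, with a median of -0.15. The higher ones were miR-484 (1.30), miR-423 (1.07), miR-93 (0.50, which did not pass under upper-quartile scaling, at 0.34) and miR-25 (0.40). The lower ones were miR-103 (-0.95), let-7a (-0.64), miR-26a (-0.55), miR-16 (-0.53) and miR-23a (-0.51). miR-24 (0.08, adjusted p = 0.489) changed sign with the scaling, and let-7g (-0.12, adjusted p = 0.119) passed as lower under all 5 other scalings run (-0.16 to -0.27, adjusted p = 0.00110 to 0.0458 by edgeR). By week, 2, 2, 4 and 3 of the 11 were higher and 2, 2, 4 and 3 were lower at weeks 6, 8, 10 and 12, where 29.1%, 21.9%, 32.9% and 29.1% of all tested miRNAs were higher and 29.5%, 13.5%, 27.4% and 21.5% lower. miR-191 thus differed between tumor and normal by 1.01 where the references spread from -0.95 to 1.30.

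miRNAs that have been linked to estrogen receptor signalling formed a second list of 10. miR-221 and miR-222 were at 0 in every library, and 6 of the 10 were abundant enough to test. Whether these 0 counts meant absent expression or reads that were not counted was not tested. Over the 4 weeks 3 of the 6 were higher, beside 38.8% of all tested miRNAs: miR-375 by 2.31, miR-18a, a member of the miR-17/92 cluster, by 1.95, and miR-342 by 0.71. miR-22 was lower (-1.15), 1 of the 6 beside 46.8% of all, while miR-21, a common oncogenic miRNA (0.09, adjusted p = 0.325), and miR-190b (-0.01, adjusted p = 0.967) did not pass, and miR-21 changed sign under 2 of 5 other scalings. By week 2, 1, 2 and 3 of the 6 were higher and 1 was lower at each of the 4 weeks, beside 29.1%, 21.9%, 32.9% and 29.1% of all tested miRNAs higher and 29.5%, 13.5%, 27.4% and 21.5% lower. The list's median log2 fold change over weeks was 0.40, beside 1.01 for miR-191 and 0.40 for miR-425. The list was not split by how its members are linked to the receptor, so its median has no set direction. The paper describes end-stage PyMT tumors as estrogen receptor negative and reports strong down-regulation of estrogen receptor alpha over the 4 time points. Any part of the receptor in these values was not tested.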

How the data were processed

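Small RNA of snap-frozen mammary tissue was extracted with miRNeasy and sequenced from TruSeq small RNA libraries. The authors trimmed adapters, aligned reads of 17 to 27 bases with Bowtie and deposited raw counts per miRBase miRNA, from reads overlapping more than 50% of it. Labels name the build mm9 and the methods a later one; the counts carry no coordinates. Groups came from labels (genotype and week, 3 libraries each; separate mice per the methods).

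Counts were tested with edgeR 4.0.16 (R 4.3.3; quasi-likelihood, TMM, filterByExpr over 8 groups, 237 of 510 tested) for each week separately, and over all 24 libraries for the mean over weeks, its variation between weeks, and week 12 against week 6. A call is an adjusted p under 0.05. CPM values are TMM-normalised; log2 CPM used a prior count of 2. Library totals of 1032241 to 3931375 set the precision. Permutations within weeks and within pairs enumerated every arrangement in Python 3.11.15 with numpy 2.4.6. Binomial intervals used scipy 1.17.1. Alternatives included DESeq2 1.42.0, other scalings and filters, replicate and lane terms and left-out replicates. Scripts were tested on simulated data.

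Named miRNAs are the members, miRNAs sharing a seed, the 5 most correlated with each member and 3 by deviations from group means, reference miRNAs, pairs transcribed together, estrogen-linked miRNAs and markers. Members and lists were chosen with earlier results of these data known. No 2 libraries were identical. The labels give no basis for pairing by replicate number, but deviations from group means correlated by over 0.1 in all 3 same-numbered tumor-normal pairs at weeks 6, 8 and 10 (0.196 to 0.816) and in 1 of 3 at week 12 (lowest 0.031). The main fits have no replicate block; the blocked fit is an alternative.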

Additional observations from a re-analysis of the deposited data

How the results depend on the processing

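miR-191 was called higher in tumor at weeks 6, 8 and 10 and over the 4 weeks under every alternative run, with log2 fold changes of 0.79 to 1.14, 0.85 to 1.15, 0.85 to 1.16 and 0.85 to 1.07. At week 12 it ran from 0.71 to 1.11 with a replicate left out and did not pass without normal replicate 1 (0.91) or tumor replicate 3 (0.81). miR-425 over the 4 weeks passed in 18 of 19 alternatives and not in lane 2 alone (0.32). Its weekly differences passed in a single fit of all libraries at week 8 (0.45) and week 12 (0.57) and, at week 12, with muscle miRNAs left out (0.66), an alternative chosen after seeing the data. The log2 ratio of the members kept its direction and call in all 12 alternatives (0.50 to 0.76).

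The rise of miR-191 in normal gland from week 6 to 12 did not pass under total counts (0.26), upper-quartile factors (0.27), at least 10 counts in every library (0.48) or without the libraries over 1% muscle miRNAs (0.55, chosen after seeing the data), and ran from 0.45 to 0.83 with a replicate left out. In tumor, week 12 against week 6 passed for miR-191 only with muscle miRNAs left out (0.54, chosen after seeing the data). The difference of miR-425 in normal gland between these weeks ran from -0.20 to 0.08 with a replicate left out and changed sign without normal replicate 2 (0.078) or 3 (0.070), never passing. The cause of these changes was not tested. Of the 5 miRNAs most like miR-191, 3 were shared under total counts; for miR-425, 3 were shared by Spearman correlation, 0 under total counts and 2 by deviations from group means.

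With the replicate number as a block, miR-191 differed by 1.05, 0.99, 1.03 and 0.95 at weeks 6, 8, 10 and 12 and by 1.02 over weeks, miR-425 by 0.28, 0.41, 0.28 and 0.57 and by 0.40, and the ratio by 0.62 (exact permutation p = 4.88e-04). No call for the members changed with the block, but the miRNAs called at week 8 went from 84 to 131 of 237. They were 58 under total counts, 122 in the single fit and 50 without tumor replicate 1. The median log2 fold change of all miRNAs over weeks moved from -0.15 to -0.31 under upper-quartile factors. With 191 to 613 counts per library, miR-425 limits how finely the ratio can be read, and 3 libraries per group limit weekly tests.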
